A study of Mus musculus with 11 samples.

Results

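The genes described here are the sodium channel beta subunits Scn2b, Scn3b and Scn4b, the intracellular fibroblast growth factors Fgf11, Fgf12, Fgf13 and Fgf14, and the sodium leak channel Nalcn. They were taken by name, from a list made with earlier results of these data known, and are 8 of the 55401 genes counted in the files. Bulk poly(A) RNA was sequenced from mouse trigeminal ganglion neurons, which carry touch, temperature and pain from the head, after both ganglia of an animal had been dissociated and cells carrying the retrograde tracer DiI had been sorted by fluorescence. There were 6 libraries from mice bearing tumours of the oral cancer cell line MOC1, of which 3 were female and 3 male. There were 5 libraries from sham mice that also carried the tracer, of which 3 were female and 2 male. The comparison asks which genes differ between tumour-bearing and sham animals in these neurons. Strain, age, genotype and time of sampling are not given in the sources used here. That line was the only tumour used, and the labels do not say whether a library came from 1 animal or a pool, so p-values measure the spread between libraries, which may be partly technical.

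Voltage-gated sodium channels consist of a pore-forming alpha subunit and smaller beta subunits, single-pass membrane proteins with an extracellular immunoglobulin-like domain that alter gating and surface expression and act in cell adhesion. The intracellular fibroblast growth factors, also called fibroblast growth factor homologous factors, are not secreted. They bind the cytoplasmic C terminus of the alpha subunit and shift the voltage and speed of its inactivation. NALCN is a related channel that is not gated in the same way and carries a background sodium leak that helps set the resting potential.

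Fgf12 and Fgf13 were the members that passed the test of MOC1 against sham, and the sequences before their RefSeq start sites are shown to place them in the genome. RefSeq windows existed for 7 of the 8 genes, all but Scn3b, with 13 windows in all. Shown are the windows of Fgf12 and Fgf13 that hold no annotated exon base. Each is 250 bases long, runs 5′ to 3′ on the minus strand, ends just before a RefSeq start of the GRCm38.p6 build, and has capitals at each GC box (GGGCGG on either strand).

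Fgf12 chr16:28753244-28753493: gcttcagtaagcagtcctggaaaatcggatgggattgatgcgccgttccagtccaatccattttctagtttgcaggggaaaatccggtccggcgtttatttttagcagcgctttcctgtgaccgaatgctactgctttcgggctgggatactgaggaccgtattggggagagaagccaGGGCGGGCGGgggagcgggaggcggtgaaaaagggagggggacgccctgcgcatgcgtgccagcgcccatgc
Fgf12 chr16:28564952-28565201: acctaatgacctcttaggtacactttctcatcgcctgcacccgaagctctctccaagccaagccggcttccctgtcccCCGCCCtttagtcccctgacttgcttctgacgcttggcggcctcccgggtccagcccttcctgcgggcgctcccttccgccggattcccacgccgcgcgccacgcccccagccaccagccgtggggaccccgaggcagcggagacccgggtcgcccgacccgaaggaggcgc
Fgf13 chrX:59585573-59585822: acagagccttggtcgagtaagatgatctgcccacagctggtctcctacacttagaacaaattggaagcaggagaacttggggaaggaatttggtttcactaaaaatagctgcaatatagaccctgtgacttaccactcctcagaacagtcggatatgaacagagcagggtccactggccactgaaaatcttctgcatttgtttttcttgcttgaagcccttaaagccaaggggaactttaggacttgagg
Fgf13 chrX:59134437-59134686: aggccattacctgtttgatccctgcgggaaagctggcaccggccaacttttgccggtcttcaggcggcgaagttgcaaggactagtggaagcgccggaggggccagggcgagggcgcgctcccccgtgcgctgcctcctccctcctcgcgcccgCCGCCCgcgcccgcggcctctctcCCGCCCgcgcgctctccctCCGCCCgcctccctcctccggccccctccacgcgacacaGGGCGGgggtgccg

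The windows of Fgf13 differ widely in base composition, from 40.4% to 74.8% GC, and those of Fgf12 less so, from 58.4% to 69.2% GC. In Fgf12 the first window had 58.4% GC and 2 overlapping GC boxes, and the second had 69.2% GC and 1 GC box. In Fgf13 the first window shown lies 17501 bases upstream of the annotated start of the gene. It had 45.6% GC and no GC box, and the second window shown had 74.4% GC and 4 GC boxes. Over all 32851 windows of this length the median GC was 52.4%, and 32.7% of windows held a GC box. None of these 4 windows held a TATA box (TATAAA), a cyclic AMP response element (TGACGTCA), an AP-1 site (TGANTCA) or an E box (CACGTG), which 12.4%, 1.55%, 6.75% and 6.02% of all windows held in that order. Of the 4 further windows of these genes, which overlap exons, 1 of Fgf12 and 1 of Fgf13 held an AP-1 site. Among these 4, the window nearest the annotated start of Fgf13, 723 bases away, had 74.8% GC and 3 GC boxes. The other of Fgf13 had 40.4% GC and no GC box. Those of Fgf12 had 68.8% GC with 2 GC boxes and 63.6% GC with none. The sequences are a description of position and letters. Counts were given per gene, so the levels below cannot be divided among start sites.

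In the GRCm38 annotation Fgf12 lies on chromosome 16 from 28160098 to 28753068, with 6 transcripts, and Fgf13 on the X chromosome from 59062145 to 59568071, with 9 transcripts. Fgf14 (chromosome 14, 123977907 to 124677127) and Nalcn (chromosome 14, 123276634 to 123627144) are neighbours, 351 kb apart. Fgf11 is on chromosome 11 from 69796068 to 69801857. The 3 beta subunit members are on chromosome 9, with Scn2b from 45117782 to 45130070 and Scn4b from 45138395 to 45154152, only 8.32 kb apart, and Scn3b from 40269217 to 40291618. No member shares exon bases with another gene on the same strand.

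Libraries held between 10757426 and 16703797 counts in genes, and 16817 genes, including all 8 members, passed the filter on low counts. The cells carried neuronal RNA. The summed level of 20 pan-neuronal genes, all of them tested, was 13170 to 14430 CPM (counts scaled to the size of the library) in MOC1 libraries and 10300 to 12520 CPM in sham libraries. Satellite glia, the cells that wrap these neurons, contributed as well, and the sum of their 16 markers was 3670 to 6415 CPM in MOC1 libraries and 9545 to 11700 CPM in sham libraries. In edgeR 14 of the 16 glial markers were lower and 9 of the 20 neuronal genes higher in MOC1 libraries, with a median log2 fold change of -1.11 for the glial and 0.28 for the neuronal list. Under pan-neuronal scaling 16 of the 16 glial markers were lower. In such bulk samples fewer cells of a type and less RNA per cell cannot be told apart. The 6 endothelial markers summed to 38.4 to 98.5 CPM in MOC1 libraries and to 56.5 to 721 CPM in sham libraries, with the highest value in sham female 1. Of 6 epithelial and tumour markers, 1 was at 0 in every library and the sum was 2.40 to 10.3 CPM in MOC1 libraries and 4.52 to 7.43 CPM in sham libraries. Sham female 1, MOC1 female 3 and MOC1 male 2 stood apart from the others of their own arm and sex. The chi-square per degree of freedom between libraries was 33.8 and 39.6 for sham female 1, against 21.2 between the others of its group. For MOC1 female 3 it was 34.1 and 36.9, against 18.7, and for MOC1 male 2 it was 23.8 and 22.4, against 13.3. The values of MOC1 male 2 were thus close to the 21.2 of sham females 2 and 3, which were kept. Results are also given without these 3 libraries.

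Of the 8 members, 2 rose in MOC1 libraries under TMM scaling and none fell, where 2.34% of all tested genes (394 of 16817) rose and 4.28% (719) fell in the same edgeR test at an adjusted p under 0.05. The log2 fold change (MOC1 over sham) was above 0 for all 8 members, with a median of 0.21, and for 7948 of 16817 genes, with a median of -0.03. Fgf12 was 1.29-fold and Fgf13 1.18-fold higher. Neither call held when libraries were scaled to neuronal genes in place of all genes. Scaled to the pan-neuronal sum, the median of all genes was -0.30, that of the members was -0.05, and 3 of the 8 members lay above 0.

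**Figure D1:**
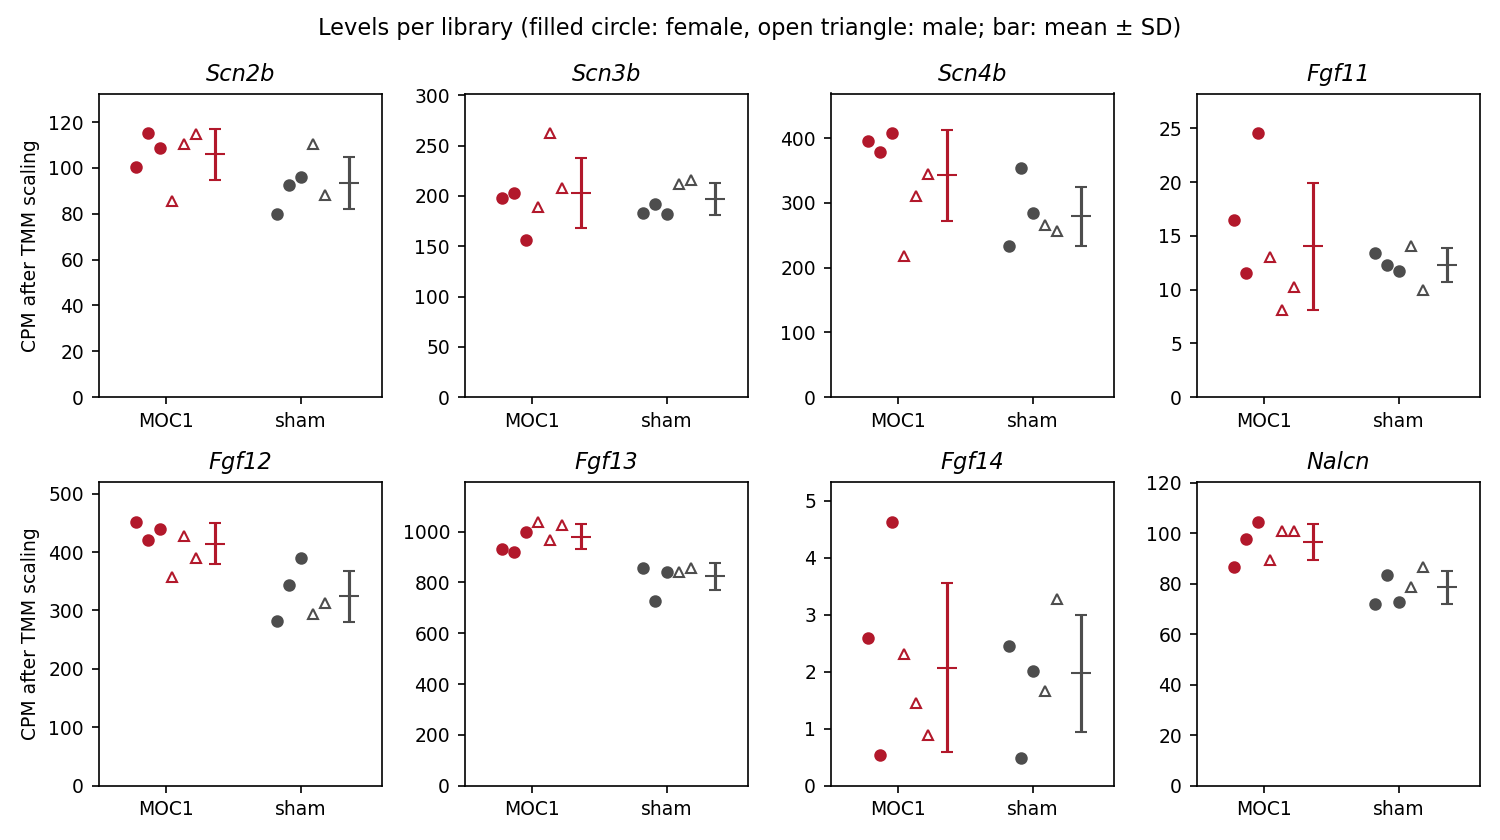
Level of each gene in CPM after TMM scaling (vertical axis, from 0) in the 6 MOC1 libraries (left) and 5 sham libraries (right), with females as filled circles, males as open triangles and bars for mean ± SD. For Fgf13 all MOC1 libraries, at 918.1 to 1039 CPM, lie above the sham libraries, at 727.9 to 855.2 CPM, while for the other 7 genes the arms overlap.

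Fgf13 encodes the homologous factor that, in mice, is needed for normal heat sensing through its action on sodium channels of sensory neurons, and it also binds microtubules. It had 931, 918.1 and 998.5 CPM in MOC1 females 1, 2 and 3 and 1039, 967.3 and 1027 CPM in MOC1 males 1, 2 and 3, against 854.6, 727.9 and 839.2 CPM in sham females 1, 2 and 3 and 840 and 855.2 CPM in sham males 1 and 3. Every MOC1 library was above every sham library, so that the arms did not overlap, which held for this member alone and for 2.15% of all tested genes in that direction. The means were 980.1 ± 49.8 CPM in MOC1 libraries and 823.4 ± 53.9 CPM in sham libraries (SD, n = 6 and 5). The log2 fold change was 0.24 (SE 0.061, 95% interval 0.11 to 0.37, edgeR adjusted p = 0.0192), but it was -0.03 (SE 0.079, interval -0.19 to 0.14, adjusted p = 0.871) when libraries were scaled to the pan-neuronal sum. Per 1000 pan-neuronal counts, Fgf13 had 70.5 ± 5.63 counts in MOC1 libraries and 71.4 ± 6.91 in sham libraries. The call was lost without sham female 2 (0.21, adjusted p = 0.0575), without sham male 1 (0.24, adjusted p = 0.0694) and without sham male 3 (0.25, adjusted p = 0.0611). It was kept without the 3 libraries that stood apart (0.27, SE 0.063, adjusted p = 0.00937).

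Fgf12 is a homologous factor of brain, heart and sensory neurons, and human FGF12 variants cause an infantile epilepsy. It had 452.1, 420.5 and 439.3 CPM in MOC1 females 1 to 3 and 357.8, 427.7 and 390.2 CPM in MOC1 males 1 to 3, against 281.3, 343.5 and 389 CPM in sham females 1 to 3 and 294.6 and 312.1 CPM in sham males 1 and 3. In 5 of the 6 MOC1 libraries Fgf12 lay above all sham libraries, and MOC1 male 1 fell below the highest sham library, sham female 3. The means were 414.6 ± 34.8 CPM in MOC1 libraries and 324.1 ± 43.1 CPM in sham libraries. This is a log2 fold change of 0.37 (SE 0.081, 95% interval 0.20 to 0.54, adjusted p = 0.00714), and it stayed above 0 at 0.11 (SE 0.079, interval -0.06 to 0.27, adjusted p = 0.414) under pan-neuronal scaling, without passing the test. Per 1000 pan-neuronal counts there were 29.8 ± 2.19 Fgf12 counts in MOC1 libraries and 28.0 ± 3.10 in sham libraries, which overlap within 1 SD. Leaving out any 1 library kept the call, with log2 fold changes of 0.32 to 0.43 and adjusted p of 0.00274 to 0.0241, and leaving out the 3 libraries gave 0.28 (SE 0.074, adjusted p = 0.0196).

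The remaining homologous factors were scarce. Fgf11, whose action on channels is the least studied of the family, had 16.5, 11.6 and 24.6 CPM in MOC1 females 1 to 3 and 13.1, 8.15 and 10.3 CPM in MOC1 males 1 to 3, against 13.4, 12.3 and 11.8 CPM in sham females 1 to 3 and 14.1 and 9.93 CPM in sham males 1 and 3. MOC1 libraries included both the highest value (female 3) and the lowest (male 2), with means of 14.02 ± 5.88 CPM in MOC1 libraries and 12.3 ± 1.601 CPM in sham libraries. Its fold change was 0.18 on the log2 scale (SE 0.25, 95% interval -0.35 to 0.71, adjusted p = 0.797).

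Fgf14, which in humans carries the repeat and point variants of a hereditary ataxia, was counted with 28, 8 and 63 reads in MOC1 females 1 to 3 and 36, 22 and 14 reads in MOC1 males 1 to 3, against 40, 8 and 34 reads in sham females 1 to 3 and 26 and 55 reads in sham males 1 and 3. These are 0.53 to 4.63 CPM in MOC1 libraries and 0.48 to 3.27 CPM in sham libraries, and 1 MOC1 library, female 3, lay above all sham libraries. On the log2 scale the fold change was 0.05 (SE 0.80, 95% interval -1.62 to 1.73, adjusted p = 0.988). The interval is wide enough to hold changes of several-fold either way. Reads differed widely between libraries of the same arm and sex, with 8 in MOC1 female 2 and 63 in MOC1 female 3.

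Fgf13 made up most of the family's summed level per exon length in both arms. On that scale it held 77.2 ± 2.29% of the sum of the 4 homologous factor genes in MOC1 libraries and 78.3 ± 2.60% in sham libraries. Fgf12 held 21.2 ± 2.06% in MOC1 libraries and 20.0 ± 2.69% in sham libraries. Fgf11 held 1.45% on average in MOC1 libraries and 1.55% in sham libraries, and Fgf14 0.155% in MOC1 libraries and 0.178% in sham libraries. The differences in share are within 1 SD for each gene.

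No beta subunit among the members passed the edgeR test at an adjusted p under 0.05. One of the 3, Scn4b, had an unadjusted p under 0.05, as did 18.5% of all genes, and DESeq2 called none of the 3. Scn4b encodes the subunit whose intracellular tail can block the open pore and give resurgent current, and it is known from large, fast-conducting sensory neurons. It had 395.7, 379.3 and 407.7 CPM in MOC1 females 1 to 3 and 218.2, 310.9 and 344.3 CPM in MOC1 males 1 to 3, against 233.9, 353.7 and 285 CPM in sham females 1 to 3 and 265.3 and 257.1 CPM in sham males 1 and 3. The 3 MOC1 females lay above all sham libraries, and MOC1 male 1 lay below all of them. Means were 342.7 ± 70.6 CPM in MOC1 libraries and 279 ± 45.6 CPM in sham libraries, and the log2 fold change was 0.31 (SE 0.11, 95% interval 0.07 to 0.55, unadjusted p = 0.0133, adjusted p = 0.124). Without MOC1 male 1, the library with the lowest Scn4b level, it was 0.39 (SE 0.094, adjusted p = 0.0186). This passed the test, in a fit that called 332 of 16668 genes higher, and leaving out any other single library did not give this call. Without any filter on low counts the log2 fold change hardly moved, at 0.32, but the adjusted p was 0.00416. That fit called 563 of 24535 genes higher, and why the adjusted p fell was not tested. Under pan-neuronal scaling it was 0.05 (SE 0.11, adjusted p = 0.84), with 24.5 ± 4.61 Scn4b counts per 1000 pan-neuronal counts in MOC1 libraries and 24.2 ± 4.21 in sham libraries.

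The summed level of 7 markers of myelinated A-fibre neurons was lowest in the library of each arm where Scn4b was lowest. It was 1334 CPM in MOC1 male 1, where the other MOC1 libraries had 1578 to 1906 CPM, and 1179 CPM in sham female 1, where the other sham libraries had 1474 to 1647 CPM. Over all libraries the A-fibre markers had a median log2 fold change of 0.26, with 1 of 7 higher, Cntnap2. The match did not extend to every library, since MOC1 male 2 had the highest A-fibre sum, 1906 CPM, with the second lowest Scn4b level of the MOC1 libraries, 310.9 CPM. The part of A-fibre content in the Scn4b values was not tested.

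Scn3b encodes a beta subunit that associates with the pore without a covalent bond. It had 197.7, 203 and 155.9 CPM in MOC1 females 1 to 3 and 188.5, 262.4 and 207.9 CPM in MOC1 males 1 to 3, against 183, 192.4 and 181.8 CPM in sham females 1 to 3 and 212.2 and 215.9 CPM in sham males 1 and 3. MOC1 libraries gave both the lowest value (female 3) and the highest (male 2), and the means were 202.6 ± 34.7 CPM in MOC1 libraries and 197.1 ± 16.1 CPM in sham libraries. Its log2 fold change was 0.02 (SE 0.091, 95% interval -0.18 to 0.21, adjusted p = 0.962), the one nearest 0 among the members. Scaled to the pan-neuronal sum it was -0.26 (SE 0.10, interval -0.47 to -0.04, unadjusted p = 0.0209, adjusted p = 0.108), close to the -0.30 of the median gene under that scaling. Scn3b had 14.6 ± 2.60 counts per 1000 pan-neuronal counts in MOC1 libraries and 17.1 ± 1.38 in sham libraries.

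Scn2b encodes a beta subunit that is linked to the alpha subunit by a disulfide bond and favours its surface expression. It had 100.3, 115.2 and 108.8 CPM in MOC1 females 1 to 3 and 85.7, 110.5 and 115 CPM in MOC1 males 1 to 3, against 79.9, 92.7 and 96.0 CPM in sham females 1 to 3 and 110.4 and 88.2 CPM in sham males 1 and 3. The arms overlapped, with 3 MOC1 libraries above all sham libraries. Scn2b had a log2 fold change of 0.18 (SE 0.10, 95% interval -0.04 to 0.40, adjusted p = 0.395). Of the summed level of the 3 beta subunit members per exon length, Scn4b held 53.1 ± 6.29% in MOC1 libraries and 49.7 ± 4.21% in sham libraries, and Scn3b 29.2 ± 5.67% in MOC1 libraries and 32.3 ± 3.29% in sham libraries. Scn2b held 17.8 ± 1.18% in MOC1 libraries and 17.9 ± 1.74% in sham libraries, and each share differed between arms by less than 1 SD.

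Nalcn had 86.5, 97.7 and 104.6 CPM in MOC1 females 1 to 3 and 89.3, 100.8 and 100.9 CPM in MOC1 males 1 to 3, against 71.8, 83.5 and 72.7 CPM in sham females 1 to 3 and 78.8 and 86.5 CPM in sham males 1 and 3. MOC1 libraries were above all sham libraries in 5 of 6 cases, and MOC1 female 1, at 86.45 CPM, sat just under sham male 3, at 86.51 CPM. Means were 96.6 ± 7.18 CPM in MOC1 libraries and 78.7 ± 6.48 CPM in sham libraries. The log2 fold change was 0.29 (SE 0.092, 95% interval 0.10 to 0.48), which did not pass in edgeR (adjusted p = 0.0666). It passed in DESeq2 (0.29, adjusted p = 0.0324), where 3 of the 8 members and 3.91% of all genes were called higher, and in edgeR without the sex term (0.30, adjusted p = 0.049). Under pan-neuronal scaling it was 0.02 (SE 0.10, adjusted p = 0.928).

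None of the 4 genes for other subunits of the NALCN complex passed the test in either direction in edgeR, none had an unadjusted p under 0.05, and DESeq2 called none. Their median log2 fold change was 0.04. Unc80, a large scaffold that joins the channel to UNC79, averaged 180.9 ± 25.0 CPM in MOC1 libraries and 180.8 ± 18.7 CPM in sham libraries, a log2 fold change of 0.02 (SE 0.094, 95% interval -0.18 to 0.21), which was -0.26 (SE 0.11, adjusted p = 0.128) under pan-neuronal scaling. Unc79 gave 0.07 (SE 0.22), Fam155a, an auxiliary subunit of the complex, 0.28 (SE 0.23), and Tmem28, the name of Fam155b in the files, -0.18 (SE 0.27). The difference between Nalcn and Unc80 in fold change was not tested.

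**Figure D2:**
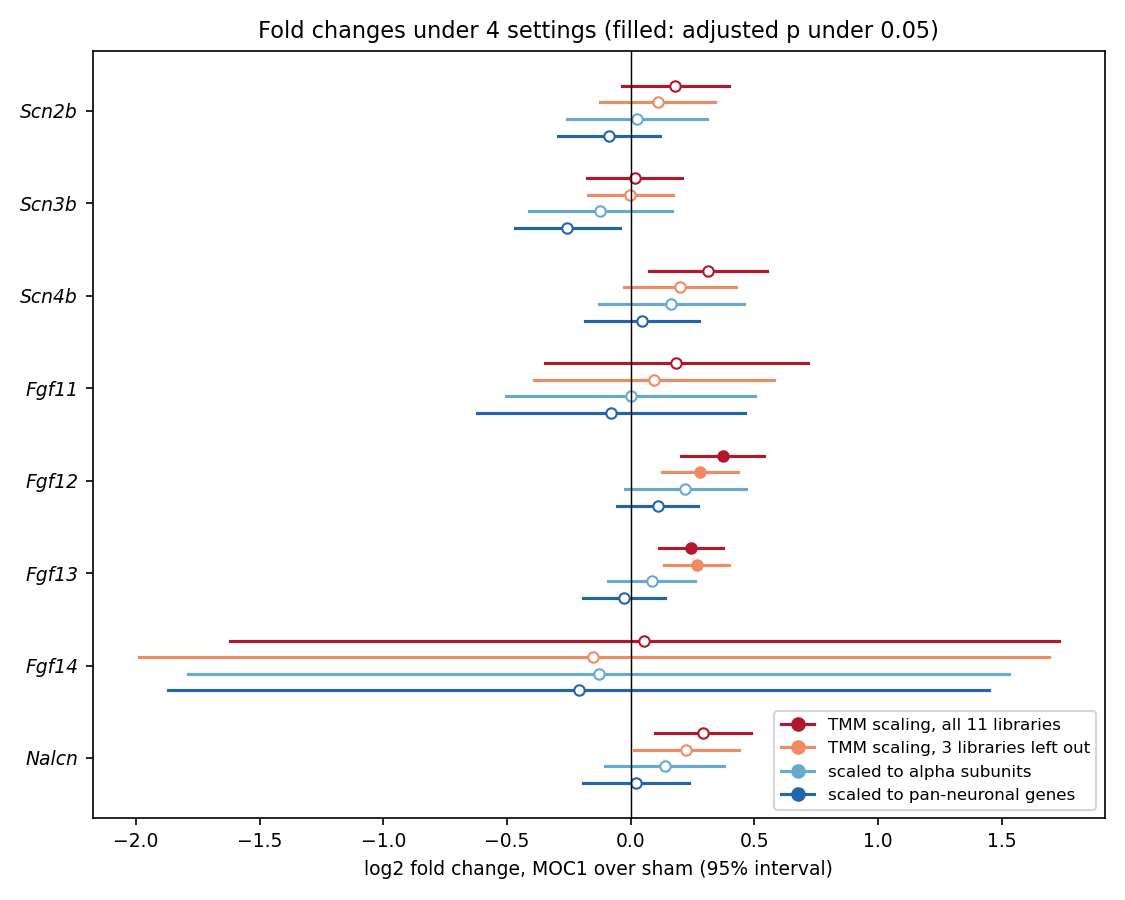
Log2 fold change of MOC1 over sham (horizontal axis) with 95% intervals for each gene, under TMM scaling with all 11 libraries or with 3 left out, and scaled to the alpha subunit or pan-neuronal sum; filled points have an adjusted p under 0.05. Fgf12 and Fgf13 are filled at 0.37 and 0.24 under TMM scaling and open at 0.11 and -0.03 under pan-neuronal scaling. The bars of Fgf14 are wide.

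Genes that act with the members were read from the same fit. Of 8 alpha subunit genes, 1 rose in MOC1 libraries and none fell, and 7 lay above 0 with a median log2 fold change of 0.24. Scaled to the pan-neuronal sum none passed in either direction, 4 of the 8 lay above 0 and their median was -0.03. Under TMM the one that passed was Scn9a, a threshold channel of nociceptors, at 0.36 (SE 0.065, adjusted p = 0.0016), against 0.09 (SE 0.079, adjusted p = 0.501) under pan-neuronal scaling. Scn8a, the main channel of nodes of Ranvier, gave 0.39 (SE 0.12, adjusted p = 0.0569) and was called higher by DESeq2, which thus called 2 of the 8. The tetrodotoxin-resistant channels of small neurons gave 0.13 for Scn10a (SE 0.082, adjusted p = 0.481) and 0.05 for Scn11a (SE 0.090, adjusted p = 0.855).

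Of 16 partners that bind, anchor or traffic sodium channels, 2 rose in edgeR, none fell and 14 lay above 0, with a median of 0.17. DESeq2 called 4 of them higher, adding S100a10 and Ank3, where it called 3.91% of all genes higher and edgeR 2.34%. Under pan-neuronal scaling none passed, 6 lay above 0 and the median was -0.10. Nfasc, the adhesion molecule neurofascin of nodes and axon initial segments, averaged 184.6 ± 16.3 CPM in MOC1 libraries and 139.9 ± 28.6 CPM in sham libraries, a log2 fold change of 0.41 (SE 0.11, adjusted p = 0.0211), or 0.14 (SE 0.11, adjusted p = 0.45) under pan-neuronal scaling. Mapk8ip2, a kinase scaffold that binds the homologous factors directly, averaged 384.6 ± 14.2 CPM in MOC1 libraries and 311.4 ± 20.1 CPM in sham libraries, a log2 fold change of 0.30 (SE 0.066, adjusted p = 0.00758), or 0.03 (SE 0.079, adjusted p = 0.846) under pan-neuronal scaling.

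The summed level of the alpha subunit genes was 4390 to 5596 CPM in MOC1 libraries and 4380 to 4876 CPM in sham libraries. Scaled to that sum, Fgf12 was at 0.22 (SE 0.12, adjusted p = 0.362) and Fgf13 at 0.08 (SE 0.084, adjusted p = 0.705), and the median of all genes was -0.18. Per 1000 alpha subunit counts, Fgf12 had 83.4 ± 13.4 counts in MOC1 libraries and 72.5 ± 11.4 in sham libraries, Fgf13 had 196 ± 17.3 in MOC1 libraries and 183.7 ± 11.5 in sham libraries, and Nalcn had 19.4 ± 2.37 in MOC1 libraries and 17.5 ± 1.16 in sham libraries. At this scaling no member passed edgeR's test, and none had an unadjusted p under 0.05, where 16.8% of all genes did. Under pan-neuronal scaling 1 of the 8 members did, Scn3b, against 27.1% of all genes.

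The sexes were compared in a fit with 4 groups of arm and sex. In females 0 of 8 members were called in edgeR, 4 had an unadjusted p under 0.05 (Scn4b, Nalcn, Fgf12 and Fgf13, against 17.3% of all genes), and DESeq2 called Fgf12 and Fgf13, where edgeR called 4.48% and DESeq2 7.58% of all genes in either direction. In males 0 of 8 were called by either tool, 2 had an unadjusted p under 0.05 (Fgf12 and Fgf13, against 7.95% of all genes), and edgeR called 1.25% and DESeq2 2.24% of all genes.

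Fgf12 differed by 0.37 (SE 0.11, adjusted p = 0.064) in females and by 0.37 (SE 0.12, adjusted p = 0.262) in males. Fgf13 differed by 0.23 (SE 0.083, adjusted p = 0.133) in females and by 0.25 (SE 0.093, adjusted p = 0.347) in males. Scn4b gave 0.44 (SE 0.15, adjusted p = 0.116) in females and 0.16 (SE 0.17, adjusted p = 0.975) in males. Nalcn gave 0.34 (SE 0.13, adjusted p = 0.15) in females and 0.23 (SE 0.14, adjusted p = 0.796) in males. The sex by tumour interaction, the female minus the male log2 fold change, was 0.00 for Fgf12 (95% interval -0.35 to 0.35) and -0.02 for Fgf13 (-0.28 to 0.24). It was 0.28 for Scn4b (-0.19 to 0.76) and 0.11 for Nalcn (-0.29 to 0.51). No gene at all passed the interaction test (0.00% of 16817), no member had an unadjusted p under 0.05 there, where 4.21% of all genes did, and DESeq2 called no gene.

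Fgf13 is X-linked, and its female over male log2 fold change with arm in the model was -0.08 (SE 0.061, 95% interval -0.21 to 0.05). The sex term called 0.0416% of all genes and 0 of the 8 members in edgeR, and 2 members had an unadjusted p under 0.05, against 4.29% of all genes. Scn4b was at 0.31 (SE 0.11, unadjusted p = 0.0136) and Scn3b at -0.23 (SE 0.091, unadjusted p = 0.0231), both with an adjusted p of 1. DESeq2 was not run for the sex term.

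Levels were set against each other per length, as CPM per kb of exon. Fgf13 was the highest member with 243.9 ± 12.4 in MOC1 libraries and 204.9 ± 13.4 in sham libraries. On the same scale Scn10a had 269.1 in MOC1 libraries and 246.6 in sham libraries, and Scn11a had 242.9 in MOC1 libraries and 234.6 in sham libraries. This order depends on the length used, since with the longest transcript Fgf13 had 392.2 in MOC1 libraries and 329.5 in sham libraries, above Scn10a at 320.3 in MOC1 and 293.5 in sham libraries. The second level was held by Scn4b, at 68.8 ± 14.2 in MOC1 libraries and 56.0 ± 9.15 in sham libraries, and Fgf12, at 66.8 ± 5.61 in MOC1 libraries and 52.3 ± 6.95 in sham libraries. The 2 did not differ beyond their spread, and with the length of the longest transcript in place of all exons Fgf12 stood above Scn4b.

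Scn3b followed with 37.1 ± 6.35 in MOC1 libraries and 36.1 ± 2.95 in sham libraries, and its range over the 11 libraries, 28.5 to 48.1, touched that of Fgf12, 45.4 to 72.9. Scn2b had 22.8 ± 2.42 CPM per kb in MOC1 libraries and 20.1 ± 2.42 in sham libraries, below Scn3b in every library. Nalcn had 6.57 ± 0.488 in MOC1 libraries and 5.35 ± 0.441 in sham libraries, below Scn2b in every library, and its range, 4.88 to 7.11, lay within that of Fgf11, 2.68 to 8.07. With the longest transcript Nalcn stood above Fgf11, at 13.6 against 4.62 in MOC1 libraries and 11.0 against 4.05 in sham libraries. Fgf14 was the lowest, at 0.495 ± 0.356 in MOC1 libraries and 0.472 ± 0.246 in sham libraries, and overlapped no other member.

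**Figure D3:**
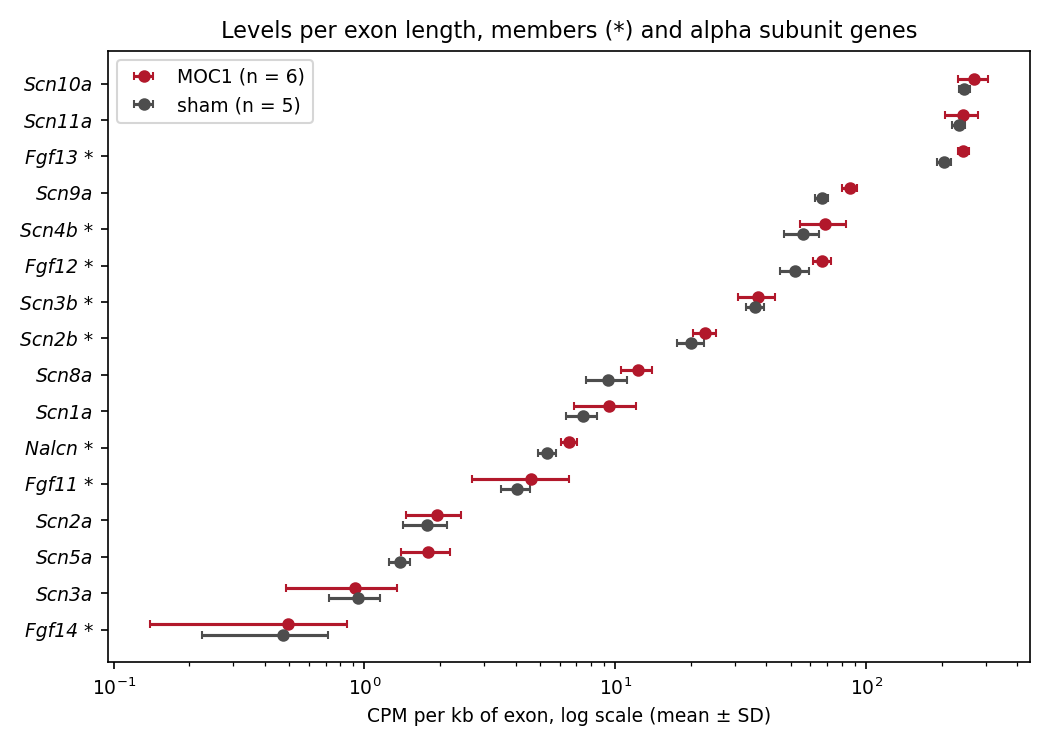
CPM per kb of exon (horizontal log axis, mean ± SD) for the 8 members, marked with an asterisk, and for the 8 alpha subunit genes, in MOC1 (n = 6, upper point of each pair) and sham libraries (n = 5). Fgf13, at 243.9 in MOC1 and 204.9 in sham libraries, lies beside Scn10a and Scn11a on this exon length, and Fgf14 is at the bottom.

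Likeness of pattern was measured as the root mean square difference of log2 CPM over the 11 libraries, each gene centred on its own mean, among 9523 genes with at least 10 CPM. Because the points share the difference between arms and the glial and neuronal content of the libraries, this is a description. Fgf12 was most like Cntnap2, an axonal adhesion molecule, at 0.083, and Atp1b1, a sodium pump subunit, at 0.085, where the median gene differed from it by 0.33. Fgf13 was most like another sodium pump subunit, Atp1b3, at 0.063, and Atl1, at 0.063 as well (median 0.28). Nalcn was most like Atp9a at 0.055 and Frmpd1 at 0.070 (median 0.30).

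Scn4b was most like Syt2, a synaptic vesicle calcium sensor, at 0.089, and Cpne6 at 0.12 (median 0.39). Scn2b was most like Eno2, the neuronal enolase, at 0.092, and Sod2 at 0.093 (median 0.30), and Scn3b was most like Ctnnbl1 at 0.067 and Uap1 at 0.086 (median 0.30). Fgf11 was nearest to Cdh4 at 0.17 and Akt1s1 at 0.19 (median 0.46), and Fgf14, at its low counts, had no close match, with Nmi and Mcph1 both at 0.60 (median 0.94).

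Among the members themselves the closest pair was Fgf13 and Nalcn, at 0.14, followed by Scn2b and Nalcn at 0.15 and Fgf12 and Nalcn at 0.17. Scn3b and Scn4b, both beta subunits, differed by 0.37, where the median gene differed from Scn3b by 0.30 and from Scn4b by 0.39. The neighbours Scn2b and Scn4b differed by 0.22, where the median gene differed from Scn2b by 0.30. The neighbours Nalcn and Fgf14 differed by 0.94, which is also how far the median gene lay from Fgf14.

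**Figure D4:**
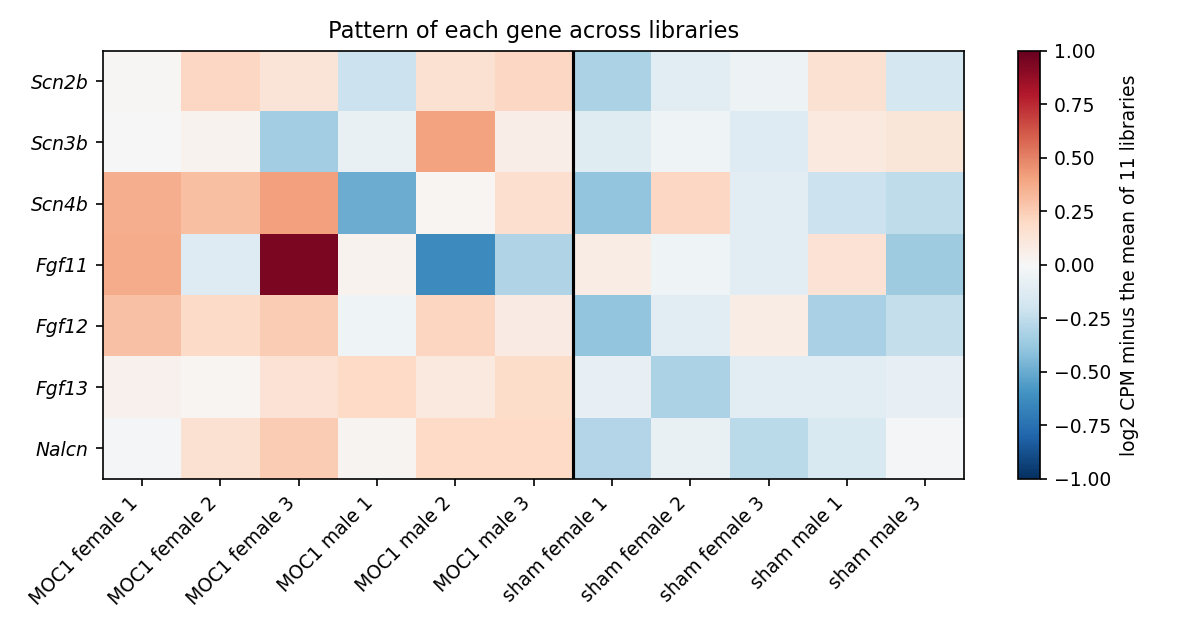
Log2 CPM of 7 members (rows, Fgf14 left out for its low counts) minus each gene's mean over the 11 libraries, with MOC1 libraries left of the line and sham libraries right of it; red is above and blue below the mean. Fgf11 varies most, from MOC1 female 3 (24.6 CPM) to MOC1 male 2 (8.15 CPM), and Scn4b is low in MOC1 male 1 (218.2 CPM) and sham female 1 (233.9 CPM).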

How the data were processed

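The deposited files hold the authors' whole-number read counts per gene, stranded and raw, per the file headers. Trimmomatic 0.35 and STAR 2.7.1a on GRCm38 are named, with RSEM, per the submitters' processing notes. The release of the gene annotation is not stated there. The 4 rows that name no gene held 18.7% to 21.5% of counts and were left out, and 54349 of 55401 identifiers matched GENCODE M21, whose exon lengths were used. Reads with several matches stayed in a row of their own.

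Tests used edgeR 4.0.16 in R 4.3.3, with TMM scaling, filterByExpr on the 4 groups of arm and sex, and quasi-likelihood F tests with sex as an additive term, adjusted by Benjamini-Hochberg over 16817 genes at 0.05. A 4-group fit gave the comparisons within sexes and the interaction. Levels are CPM after TMM, and list sums are CPM without TMM. The members, lists and alternatives, which include DESeq2 1.42.0 and voom in limma 3.58.1, were chosen with earlier results of these data known. Named genes are the 8 members, called genes of the 3 partner lists, further channel genes and the 2 genes most like each member. One gene that this rule takes is not reported here. The tests were checked on simulated data whose changes were larger than those of the members and random in sign. The check does not cover changes as small as theirs, or a one-sided shift such as that of the glial markers. Libraries of a group differed beyond sampling noise, with a chi-square per degree of freedom of 13.3 to 39.6.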

Additional observations from a re-analysis of the deposited data

Results flagged for a closer look

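Of 44 groups of values tested for a single library far from the others, 3 had one, where chance gives about 5% of groups. Fgf13 in sham female 2 was 727.9 CPM, and the nearest of the other 4 sham libraries was 839.2 CPM. The summed level of the alpha subunit genes in sham male 3 was 4876 CPM, and the nearest of the other sham libraries was 4484 CPM. The summed level of the endothelial markers in sham female 1 was 721.4 CPM, and the nearest of the other sham libraries was 117.9 CPM.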

How the results depend on the processing

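edgeR called 1113 genes and 2 members. DESeq2 (Nalcn added), no low-count filter (Scn4b added) and no sex term (Nalcn added) called 3 members each. These settings also called more genes over all. DESeq2 called 648 of 16581 genes higher. Without the filter 563 genes were higher and 1010 lower of 24535, and without the sex term 422 were higher and 774 lower of 16817. The number of genes called was 0 with the satellite glia sum as a covariate (1162 at an unadjusted p under 0.05), 2097 under pan-neuronal and 10066 under satellite glia scaling, which put the median of all genes at 1.06. Members called were 0 with that covariate (2 at an unadjusted p under 0.05) and under pan-neuronal (1) and alpha subunit scaling (0), and 7 under satellite glia scaling. The satellite glia sums of the arms do not overlap, so this covariate and the arm cannot be told apart. In the pan-neuronal and alpha subunit cases the scaling itself moved the median of all genes to -0.30 and -0.18. The share of called genes that were higher moved with the scaling, with 394 higher and 719 lower under TMM, 316 and 760 under total counts, 29 and 2068 under pan-neuronal, 32 and 872 under alpha subunit and 10012 and 54 under satellite glia scaling.

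With 1 library left out in turn, 816 to 1129 genes and 1 to 3 members were called. Log2 fold changes then ranged from -0.013 to 0.35 for Fgf11, from -0.37 to 0.39 for Fgf14 and from -0.041 to 0.073 for Scn3b. In females they ranged from -0.081 to 1.13 for Fgf14 and from -0.072 to 0.11 for Scn3b. In males they ranged from -0.42 to 0.081 for Fgf11, from -0.090 to 0.24 for Scn2b and from -0.11 to 0.14 for Scn3b. For the interaction they ranged from -0.12 to 0.12 for Fgf12, from -0.089 to 0.017 for Fgf13 and from -0.14 to 0.11 for Scn3b. Each of these has an interval that spans 0 in the fit to all libraries.

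Other reversals of sign, whose cause was not tested, were as follows. With the satellite glia covariate Fgf11 was -0.64 and Fgf14 -1.22. Under pan-neuronal scaling Fgf11 was -0.079, Fgf13 -0.027, Fgf14 -0.21, Scn2b -0.088 and Scn3b -0.26. Under alpha subunit scaling Fgf11 was -0.0011, Fgf14 -0.13 and Scn3b -0.12. In voom Fgf14 was -0.085 and Scn3b -0.00052. Without the 3 libraries that stood apart Fgf14 was -0.15 and Scn3b -0.0020. Under total-count scaling Scn3b was -0.0052. Within sexes under pan-neuronal scaling, Fgf13 was -0.11, Nalcn -0.0024 and Scn2b -0.065 in females, and Scn2b was -0.12, Scn3b -0.14 and Scn4b -0.026 in males. The interaction under that scaling was -0.15 for Fgf12 and -0.052 for Nalcn. DESeq2 gave 0.0015 for Scn3b in females.

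Female samples with the same replicate number did not deviate together (correlations of 0.01, -0.04 and 0.02), and the numbers were not taken as pairs. MOC1 females 1 and 2 correlated best with another number, and MOC1 female 3 with its own. The male samples (0.04 and 0.01) cannot decide this, since 2 sham libraries centred on their own mean give equal and opposite correlations. With the replicate number as a block 1090 genes and 2 members were called, with Fgf12 at 0.37 and Fgf13 at 0.26. Scn3b was then at -0.026, at -0.050 in males and 0.042 for the interaction, and Fgf14 was at 0.067 in males. Counts of Fgf14 ran from 8 to 63 per library, and its estimates were imprecise.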
